A study of Mus musculus with 4 samples.

Results

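The small leucine-rich proteoglycans examined here were the products of 10 mouse genes: Dcn, Bgn, Aspn, Fmod, Lum, Omd, Prelp, Epyc, Ogn and Chad. They were chosen by name, and an array probe was taken as theirs when its accession is a RefSeq transcript of the gene. Of the 10 genes, 9 had a probe, out of 37042 genes or unnamed transcripts on the array, and Prelp was not analysed here. Each of the 9 was read by 1 probe at 1 spot, and every one of these spots was well above background on all 4 arrays, with none marked as an outlier.

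The RNA came from primary chondrocytes of 6-day-old C57BL/6J littermates, all homozygous for the floxed Rela allele. The control cells were Rela fl/fl and carried no Cre. The cells labelled cKO were Prrx1-Cre; Rela fl/fl, in which the Prrx1 promoter drives Cre in limb mesenchyme. Their arrays are called control and cKO-labelled below, and untreated or TNF-treated. Cells of each genotype were kept for 3 days without TNF or with 10 ng ml-1 TNF, an inflammatory cytokine that activates NF-κB through Rela. There was 1 array for each of the 4 combinations, so no value has a replicate, no test between conditions was run, and the number of arrays limits the precision. The sources used here do not say how many mice gave the cells of an array.

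Small leucine-rich proteoglycans are secreted matrix proteins built on a core of leucine-rich repeats, and several carry chondroitin, dermatan or keratan sulfate chains. They bind collagen fibrils and set how these assemble, and some of them also hold growth factors such as TGF-β in the matrix. Cartilage is rich in them, and their breakdown is part of cartilage degradation in osteoarthritis.

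Values below are signals, where 1 stands for the 75th percentile over transcript spots on the same array, and log2 differences between arrays. A signal can be set against the same probe on another array but not against another gene's probe. The error of a difference was taken from probes printed at 10 spots. Called the technical spread here, it was 0.14 on the log2 scale in all 4 pairwise comparisons, and that of the interaction (the TNF difference on the cKO-labelled arrays minus that on the control arrays) was 0.20. This error covers spot-to-spot noise within an array and leaves out the spread between cultures and animals. Differences were read against 2 limits, 2-fold and 2 technical spreads, and neither is a test.

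The targeted gene was looked at first. Rela had a signal of 28.3 on the untreated and 34.7 on the TNF-treated control array, and of 34.0 and 40.2 on the cKO-labelled ones. It was thus not lower on the cKO-labelled arrays, and whether its probe lies in the deleted part of the gene was not determined here, so these values do not check the labels. Ccl2, a chemokine gene induced by NF-κB, was 32.5-fold higher with TNF on the control arrays and 9.01-fold higher on the cKO-labelled arrays. Xist, which is expressed from the inactive X chromosome, had signals of 0.715 and 0.752 on the control arrays and did not rise well above background on the cKO-labelled ones, and the Y-linked gene Eif2s3y had signals of 1.77 and 1.83 against 6.23 and 6.53. Genotype and the sex of the mice therefore cannot be told apart for any gene below. All 14 chondrocyte markers, among them Col2a1, Acan and Sox9, were well above background on every array.

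None of the 9 genes differed by 2-fold in any comparison. Over all genes tested, 6.66% passed 2-fold with TNF on the control arrays, 5.02% with TNF on the cKO-labelled arrays, 7.66% between genotypes without TNF, 4.24% between genotypes with TNF, and 10.1% in the interaction. At 1.5-fold, Aspn passed with TNF in each genotype, where 10.8% and 10.6% of all genes did, and Chad passed between genotypes without TNF, where 13.6% did. None passed 1.5-fold between genotypes with TNF or in the interaction, where 10.1% and 19.3% of all genes did. The log2 differences of the 9 genes, whose signals by array are plotted, ran from -0.82 to 0.32 with TNF on the control arrays, from -0.89 to 0.35 with TNF on the cKO-labelled arrays, from -0.64 to 0.00 between genotypes without TNF and from -0.55 to -0.10 between genotypes with TNF.

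**Figure D1:**
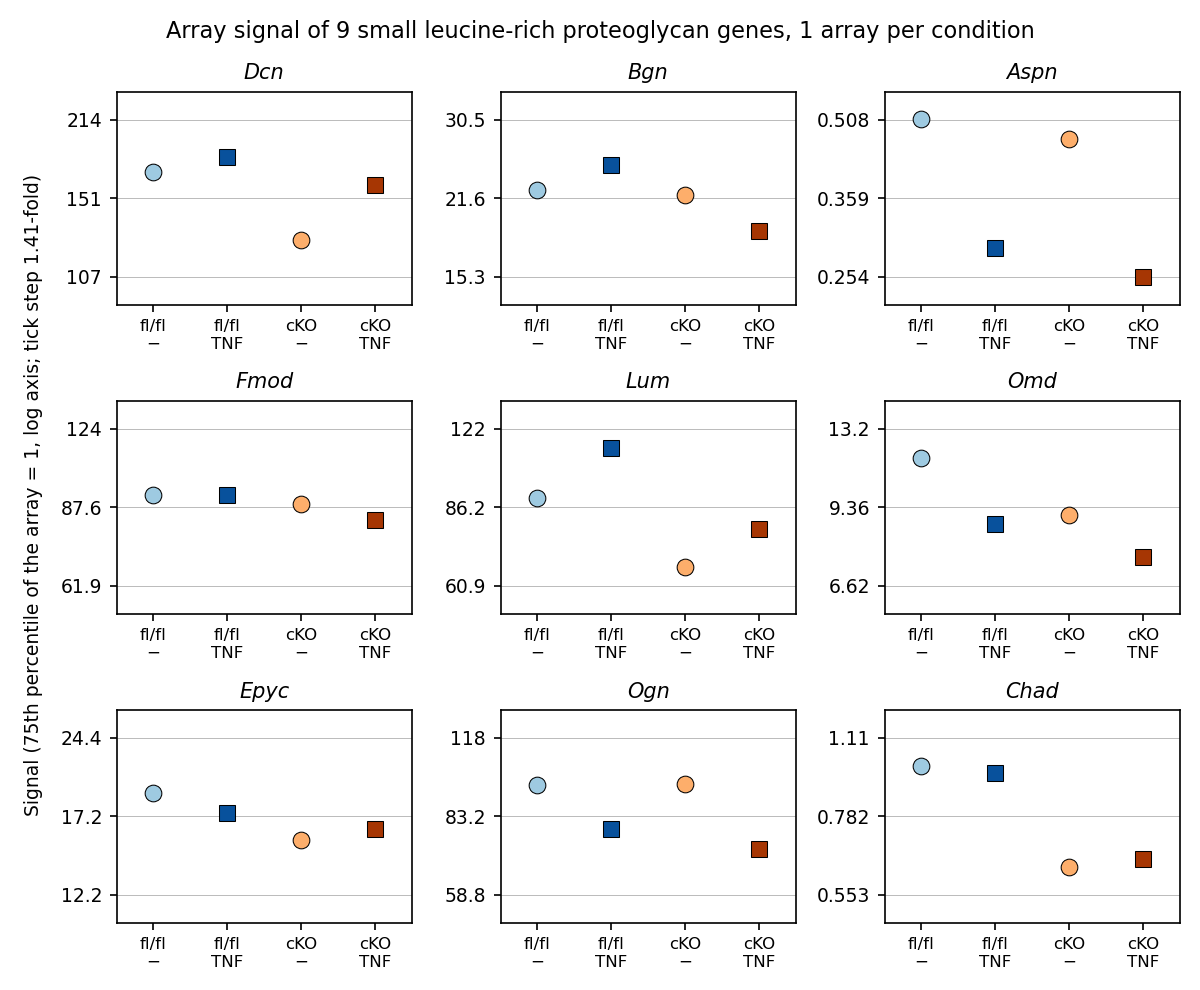
Signal of 9 small leucine-rich proteoglycan genes on each of the 4 arrays, on log axes that span the same fold in every panel (75th percentile of the array = 1; circles, without TNF; squares, with TNF; blue, Rela fl/fl control; orange and brown, labelled cKO; 1 array per point, so no error bar). Aspn differed most with TNF, going from 0.510 to 0.289 and from 0.468 to 0.254, and Chad was lower on both cKO-labelled arrays.

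The question of the first comparisons was how these genes differed after 3 days of TNF in each genotype. Among the 9 genes, Aspn, Omd and Ogn were lower with TNF on the control arrays by over 2 technical spreads, against 9.46% of all genes well above background, and Lum was higher, against 9.33%. On the cKO-labelled arrays, Aspn and Ogn were lower by over 2 spreads, against 10.3% of genes, and Dcn was higher, against 10.7%. The remaining members lay within 2 spreads. The median log2 difference of the 9 genes was -0.04 on the control arrays, where that of all genes tested was 0.01, and -0.10 on the cKO-labelled arrays, where that of all genes was 0.06. Calls in the second comparison depended on the scaling: without scaling, or with the deposited scaled values, the median of all genes there was -0.05 or -0.06, Dcn no longer passed, and Omd and Bgn were lower by over 2 spreads. The chondrocyte markers differed as well: with TNF in control cells 13 of 14 were below 0, 4 of them by over 2 spreads, with a median of -0.22, and on the cKO-labelled arrays 2 were higher and none was lower by over 2 spreads, with a median of 0.07. Their part in the values of the 9 genes was not tested.

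Asporin, encoded by Aspn, is a class I member with a run of aspartates that binds collagen and TGF-β. Its signal was 0.510 without and 0.289 with TNF on the control arrays, and 0.468 without and 0.254 with TNF on the cKO-labelled arrays. Both arrays with TNF lay below both without it. The log2 difference was -0.82 in control cells, a 1.77-fold lower signal, and -0.89 on the cKO-labelled arrays, 1.85-fold lower, and the interaction of -0.07 lay within 1 technical spread and turned to 0.03 with quantile normalization. With normexp background correction the Aspn differences were smaller, at -0.67 and -0.74.

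Osteoadherin, encoded by Omd, is a keratan sulfate proteoglycan best known from bone. Omd had a signal of 11.7 without and 8.71 with TNF on the control arrays, and of 9.06 and 7.53 on the cKO-labelled arrays. Its highest value was that of the untreated control array and its lowest that of the TNF-treated cKO-labelled array. Omd was lower with TNF by 1.34-fold in control cells, a log2 difference of -0.42. The difference of -0.27 on the cKO-labelled arrays lay just within 2 spreads there (-0.2672 against a limit of 0.2756), and was -0.37 without scaling.

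Mimecan, the product of Ogn, is a class III member found in cartilage, bone and other connective tissues. Without TNF, the Ogn signal was 95.6 on the control array and 95.9 on the cKO-labelled array, and with TNF it was 78.8 and 72.1. As for Aspn, both arrays with TNF lay below both without it. The log2 difference was -0.28 in control cells, barely past the limit (-0.2788 against 0.2772), and -0.41 on the cKO-labelled arrays, 1.33-fold lower. Without scaling the first was -0.27 and no longer passed.

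**Figure D2:**
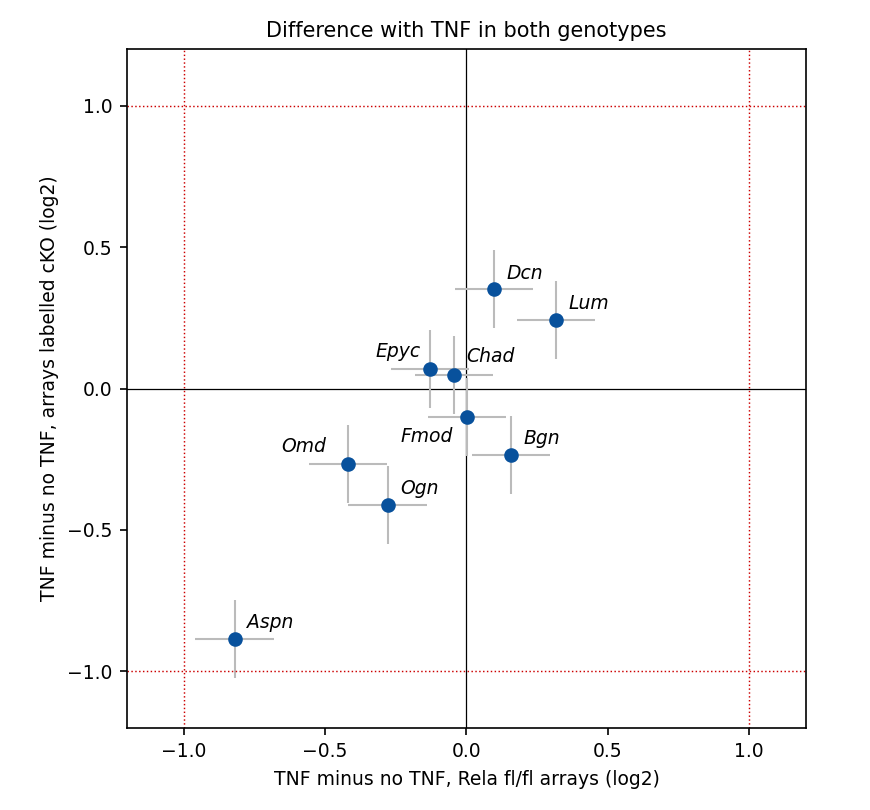
Log2 difference with TNF (TNF minus no TNF) of 9 genes on the control arrays (horizontal axis) and on the cKO-labelled arrays (vertical axis). Grey bars are 1 technical spread of a difference and dotted red lines mark 2-fold. Aspn, Omd and Ogn lie lower left, Dcn and Lum upper right, and Bgn lies right of 0 on one axis and below 0 on the other.

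Aspn, Omd and Ogn lie next to each other on mouse chromosome 13, with Ecm2, another gene of leucine-rich repeats, beside Aspn. They were the 3 members whose signal was lower with TNF by at least 1 technical spread in both genotypes, and this grouping was noticed after the values were seen. Ecm2 did not meet this, with log2 differences of -0.26 in control cells and -0.08 on the cKO-labelled arrays, the second within 1 spread. Because these 3 genes were all lower with TNF, the 250 bases before their start sites are shown, from RefSeq annotation, written 5′ to 3′ on the strand of the gene. Capitals mark matches to a TATA motif (TATAAA) and to a SOX motif (AACAAT), each searched on both strands, so that the reverse-strand matches read TTTATA and ATTGTT.
Aspn, chr13:49544193-49544442, GRCm38.p6, plus strand: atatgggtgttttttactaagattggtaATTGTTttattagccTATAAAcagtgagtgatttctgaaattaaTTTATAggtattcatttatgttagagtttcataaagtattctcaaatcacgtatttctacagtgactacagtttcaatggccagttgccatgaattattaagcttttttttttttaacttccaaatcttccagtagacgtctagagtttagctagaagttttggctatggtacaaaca
Omd, chr13:49582212-49582461, GRCm38.p6, plus strand: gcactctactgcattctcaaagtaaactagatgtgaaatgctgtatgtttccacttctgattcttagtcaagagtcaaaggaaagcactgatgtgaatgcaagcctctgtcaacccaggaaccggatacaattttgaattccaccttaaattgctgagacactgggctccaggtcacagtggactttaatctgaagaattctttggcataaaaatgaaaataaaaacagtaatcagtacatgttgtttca
Ogn, chr13:49607765-49608014, GRCm38.p6, plus strand: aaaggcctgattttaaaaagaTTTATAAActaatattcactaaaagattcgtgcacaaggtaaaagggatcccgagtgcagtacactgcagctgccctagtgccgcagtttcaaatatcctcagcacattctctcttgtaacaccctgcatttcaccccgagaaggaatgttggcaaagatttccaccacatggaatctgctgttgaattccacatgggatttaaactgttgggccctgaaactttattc

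The Aspn sequence holds a SOX match whose first base is at -222 and TATA matches at -207 and -178, counted back from the start site. In the Ogn sequence, a pair of overlapping TATA matches on opposite strands begins at -229 and -227. None of these motifs was matched in the Omd sequence. A promoter sequence was matched for 8 of the 10 genes, and Dcn and Lum had none. Over 32851 mouse promoters of the same length, 12.4% hold the TATA motif and 9.42% the SOX motif. The κB motif, the kind of site bound by Rela and its partners, is present in 7.25% of promoters and the AP-1 motif (TGANTCA) in 6.75%, and neither was matched in the 250 bases of any of the 8 genes, which says only that these letters are not in these windows. Beyond chromosome 13, SOX matches were found before both annotated starts of Epyc and before Prelp.

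Chad was the other gene with a TATA match, which begins at -28, and the sequence is given because Chad showed the largest genotype difference of the 9 genes (capitals mark the TATA match).
Chad, chr11:94564797-94565046, GRCm38.p6, plus strand: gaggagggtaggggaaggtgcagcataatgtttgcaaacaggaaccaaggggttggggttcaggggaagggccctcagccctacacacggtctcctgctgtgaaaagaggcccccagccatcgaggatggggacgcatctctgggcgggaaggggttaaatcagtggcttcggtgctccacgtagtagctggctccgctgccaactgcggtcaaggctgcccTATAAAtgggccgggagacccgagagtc

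Decorin, the product of Dcn, carries a chondroitin or dermatan sulfate chain, binds collagen fibrils and holds TGF-β. Dcn had a signal of 170.3 without and 182 with TNF on the control arrays, and of 126 and 160.5 on the cKO-labelled arrays. The untreated cKO-labelled array was the lowest of the 4, and the rest lay between 160.5 and 182. The log2 difference with TNF was 0.10 in control cells, within 1 spread and turned to -0.02 by normexp correction, and 0.35 on the cKO-labelled arrays, 1.28-fold higher. The latter was 0.25 without scaling and 0.17 with quantile normalization, both within 2 spreads. Like 10.7% of transcript spots, the Dcn spot lay in a patch of brighter spots on the untreated control array. Without spots in patches Dcn has no value there. The part of the patch in the differences that use this array was not tested, and the TNF difference on the cKO-labelled arrays does not use it.

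Lumican, the product of Lum, is a keratan sulfate proteoglycan and a neighbour of Dcn on chromosome 10. The Lum signal was 90.0 without and 112 with TNF on the control arrays, and 66.2 and 78.4 on the cKO-labelled arrays. It was higher with TNF in both genotypes, and both cKO-labelled arrays lay below both control arrays. The log2 difference was 0.32 in control cells and 0.24 on the cKO-labelled arrays, the second within 2 spreads. With quantile normalization they were 0.26 and 0.06, both then within 2 spreads.

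Biglycan, the product of the X-linked gene Bgn, is the closest relative of decorin and binds TGF-β and collagen. Bgn had a signal of 22.4 without and 25.0 with TNF on the control arrays, and of 21.9 and 18.7 on the cKO-labelled arrays. The 2 arrays without TNF were alike, and those with TNF lay above them in control cells and below them on the cKO-labelled arrays. The log2 differences of 0.16 and -0.23 each exceeded 1 technical spread and not 2, and their interaction was -0.39, at the limit of 2 of its spreads (-0.3908 against 0.3909). Bgn passed that limit without scaling, with the deposited scaled values, with quantile normalization and with normexp correction, and 18.1% of all genes passed it in the main setting. The Bgn spot, too, lay in a patch on the untreated control array.

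The genes of fibromodulin, epiphycan and chondroadherin lay within 1 technical spread with TNF in the main setting. Fmod, whose keratan sulfate proteoglycan product guides collagen fibril growth, had signals of 92.4 and 92.5 on the control arrays without and with TNF, and of 88.9 and 83.0 on the cKO-labelled arrays. Epyc, a cartilage gene named after the epiphysis, had signals of 19.1, 17.4, 15.5 and 16.3 in the same order. Chad, whose product binds type II collagen and integrins, had signals of 0.976, 0.947, 0.627 and 0.649. The Fmod difference on the cKO-labelled arrays was -0.10, and -0.20 without scaling and -0.28 with quantile normalization, the last just past 2 spreads. The smallest of these differences changed sign with the scaling: Fmod in control cells from 0.00 to -0.06 with quantile normalization, and Epyc and Chad on the cKO-labelled arrays from 0.07 to -0.04 and from 0.05 to -0.06 without scaling.

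The second question was how the cKO-labelled arrays differed from those of control cells. Without TNF, Dcn, Lum, Omd, Epyc and Chad were lower on the cKO-labelled array by over 2 technical spreads, 5 of 9 genes against 10.6% of all genes, and none was higher, against 14.3%. With TNF, Bgn, Lum and Chad were lower, 3 of 9 genes against 9.22%, and none was higher, against 14% of all genes. The median log2 difference was -0.30 without TNF and -0.19 with it, where that of all genes tested was 0.01 and 0.06. In both comparisons 8 of the 9 genes were below 0, where 22.9% of all genes were, although Bgn was at 0.01 without TNF when no scaling was used. These comparisons use different arrays, but share the genotypes and the difference in Xist and Eif2s3y.

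**Figure D3:**
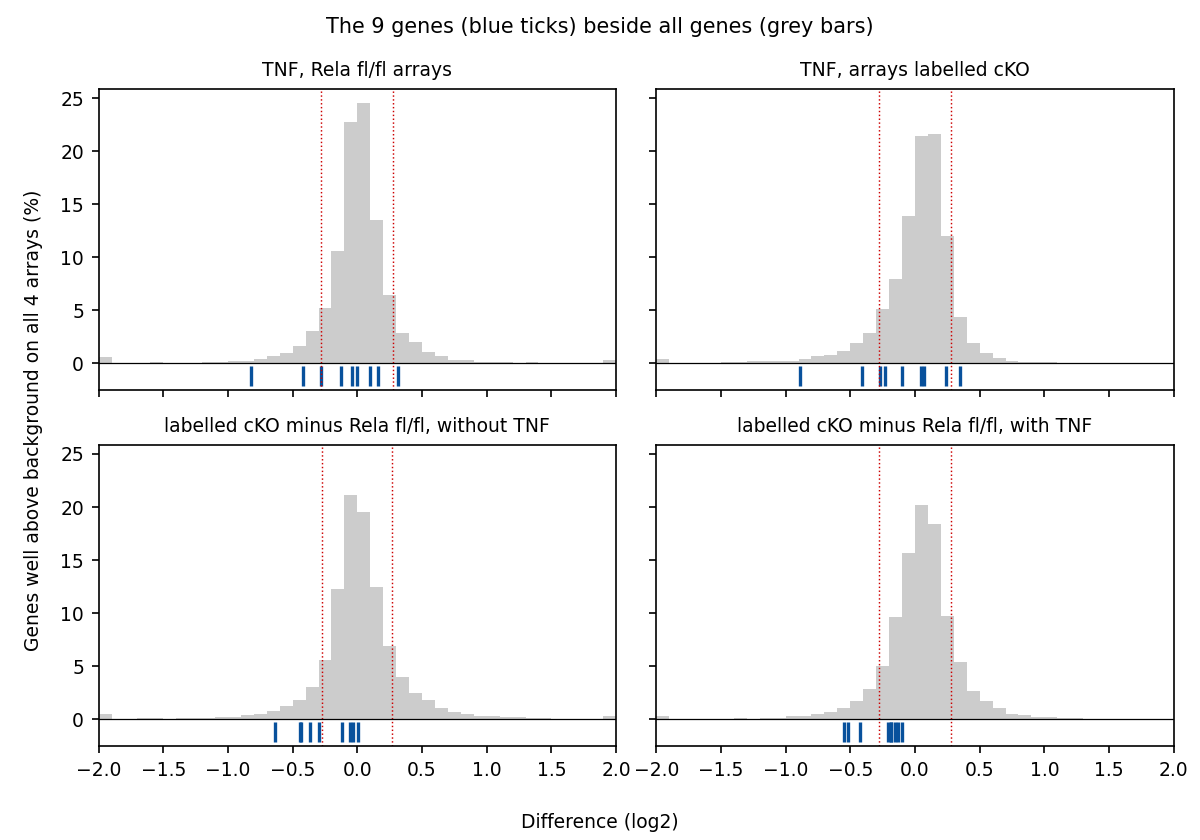
Share of genes well above background on all 4 arrays (grey bars, percent in steps of 0.1 on the log2 scale; values beyond the axis are in the outermost bars) by log2 difference in 4 comparisons, with the 9 proteoglycan genes as blue ticks. Dotted red lines mark 2 technical spreads, and in both genotype comparisons no tick lies beyond the right-hand line.

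Chad and Lum were lower by over 2 spreads in both. The Chad signals of 0.627 and 0.649 on the cKO-labelled arrays lay below those of 0.976 and 0.947 in control cells, with log2 differences of -0.64 without TNF and -0.55 with it, or 1.56-fold and 1.46-fold lower. For Lum the log2 differences were -0.44 and -0.52, or 1.36-fold and 1.43-fold lower. Dcn, Omd and Epyc passed the limit only without TNF, with log2 differences of -0.44, -0.36 and -0.30, and their interactions of 0.26, 0.15 and 0.20 lay within 2 spreads. The Epyc difference was -0.25 without scaling, within the limit, and that of Dcn with TNF passed it with quantile normalization, at -0.29 beside -0.18. Bgn passed it only with TNF, at -0.42, beside -0.03 without TNF, which became 0.01 without scaling. Fmod, Aspn and Ogn lay within 2 spreads in both, and the Ogn difference without TNF was 0.00 and turned to -0.04 with normexp correction. No member passed 2 spreads of the interaction.

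The chondrocyte markers moved in the same comparison. Without TNF, 11 of the 14 were lower on the cKO-labelled array by over 2 spreads, against 10.6% of all genes. None was higher, against 14.3%, and the median log2 difference was -0.71. Col2a1, Sox9 and Comp lay within 2 spreads, at -0.03, -0.15 and -0.26. With TNF 9 were lower, against 9.22% of all genes, and none was higher, against 14%, with a median of -0.43. Matn1, a cartilage matrix protein gene, had signals of 89.9 and 73.4 in control cells and of 24.9 and 32.3 on the cKO-labelled arrays, and was 3.61-fold lower without TNF. Col9a2, a chain of type IX collagen, was 2.09-fold lower. The summed signal of the 14 markers was 2123 and 2007 on the control arrays and 1574 and 1644 on the cKO-labelled arrays. Such a sum weights each probe by its brightness, and its largest term was Col2a1, at 582 to 607 on every array. In a bulk culture, fewer chondrocytes and less RNA of these genes per chondrocyte cannot be told apart, and the part of the chondrocyte share in the proteoglycan differences was not tested.

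**Figure D4:**
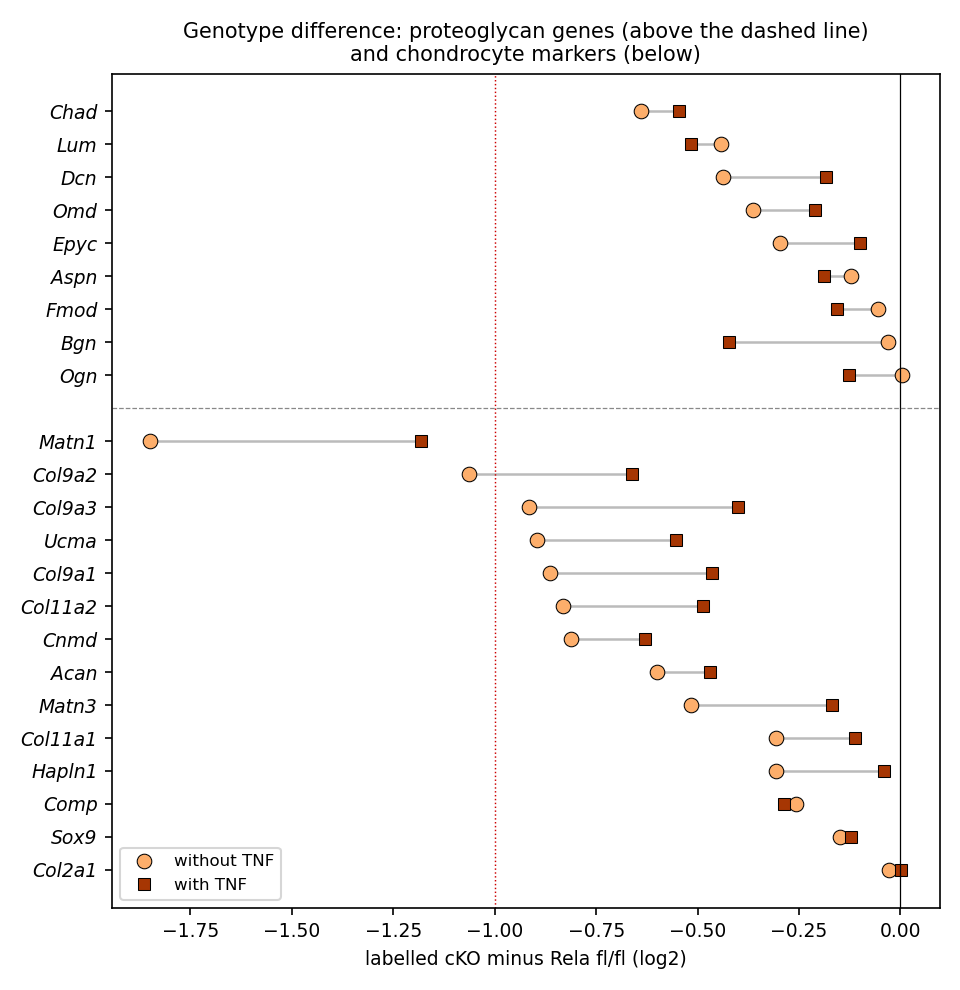
Log2 difference between genotypes (cKO-labelled minus control) of the 9 proteoglycan genes above the dashed line and of 14 chondrocyte markers below it, without TNF (circles) and with TNF (squares), 1 array per condition; the dotted red line marks a 2-fold lower signal. Nearly all points lie left of 0, with Matn1 farthest at -1.85 without TNF, and Chad the lowest of the proteoglycan genes at -0.64.

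Markers of other cell types were present at differing levels. The 8 fibroblast-like markers, all well above background, summed to between 707.5 and 731 on the 4 arrays. Most of that was Col1a1 and Col1a2. Within that list, Pdgfra was 1.68-fold higher with TNF in control cells and 1.49-fold higher on the cKO-labelled arrays. Thy1 was 3.00-fold lower and S100a4 1.82-fold higher on the untreated cKO-labelled array than on the control, where the S100a4 spot lay in a patch. Past 2 spreads, 2 of the 8 were higher and 1 lower with TNF in control cells, and 3 higher and none lower on the cKO-labelled arrays. Between genotypes 1 was higher and 2 lower without TNF, and 2 higher and 3 lower with it. Over all genes, 9.33% to 10.7% were higher and 9.46% to 10.3% lower with TNF. Between genotypes, 14% to 14.3% of all genes were higher and 9.22% to 10.6% lower. The 3 tendon markers summed to between 11.1 and 17.5. Most of that was Scx, which was 1.38-fold higher with TNF in control cells and 1.33-fold higher on the untreated cKO-labelled array, whereas Tnmd was 2.50-fold lower with TNF in control cells and 3.30-fold lower on the untreated cKO-labelled array, with 2 of the 10 spots of its probe in a patch on each of the 2 arrays without TNF and 1 on the TNF-treated control array. Of 5 osteoblast markers 4 had a probe, and their sum was 4.94 and 4.08 on the control arrays and 10.2 and 7.80 on the cKO-labelled arrays. Ibsp, a bone matrix gene, was 2.20-fold higher on the untreated cKO-labelled array. Sp7, an osteoblast transcription factor gene, was at least 3.51-fold higher on the TNF-treated cKO-labelled array than on the control and at least 2.12-fold lower with TNF in control cells, because it was not well above background on the TNF-treated control array, and Dmp1 was not well above background on any array. Of 6 leukocyte markers 5 had a probe, with Ptprc not well above background on any array and a sum between 34.9 and 43.8. Nearly all of the sum was 1 Itgam probe, at 31.8 to 40.3, while the other probes of Itgam read between 0.0403 and 0.549. In that list Lyz2 was 4.30-fold lower on the untreated cKO-labelled array and 2.67-fold lower with TNF in control cells, with its spot in a patch on the untreated control array. The high Adgre1 signal of the untreated cKO-labelled array, 7.33-fold above the control and 11.1-fold above the TNF-treated cKO-labelled array, came from a spot in a patch. The 4 endothelial markers summed to between 17.7 and 20.7, nearly all from 1 Kdr probe, while the second Kdr probe, with 10 spots, was not well above background on any array, like Cdh5 and Tek. The part of these cells in the proteoglycan values was not tested.

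Related genes and the genes that act on these proteoglycans were described from lists. Of 8 other leucine-rich repeat proteoglycan genes, 5 were well above background on all arrays, and Kera and Nyx were on none. Chadl, a chondroadherin-like gene, had signals of 35.5 and 36.8 in control cells and of 17.0 and 18.7 on the cKO-labelled arrays, 2.09-fold lower without TNF and 1.97-fold lower with it. Its spot lay in a patch on the untreated control array only. Between genotypes without TNF, 2 of the 5 were higher by over 2 spreads and 3 were lower, with Tsku at 0.28 and Podn at -0.39, and with TNF 1 was higher and 2 were lower. Over all genes, 14.3% were higher and 10.6% lower without TNF, and 14% and 9.22% with it. Podnl1 was higher on the cKO-labelled arrays in both comparisons, with log2 differences of 0.50 and 0.76, and Ecm2 was lower, with -0.60 and -0.42. Compared with untreated cells of the same genotype, TNF-treated control cells had a higher Tsku signal, with a log2 difference of 0.59, and TNF-treated cKO-labelled cells higher Podn and Podnl1, with 0.33 and 0.47, each by over 2 spreads.

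Enzymes that build the sugar chains came next. Of 20 genes for the linker and for chondroitin or dermatan sulfate, all well above background, none passed 2-fold. Past 2 spreads, 1 was higher and none was lower with TNF in each genotype, where 9.33% to 10.7% of all genes were higher and 9.46% to 10.3% lower. Between genotypes 1 was higher and 3 were lower in each comparison, where 14% to 14.3% of all genes were higher and 9.22% to 10.6% lower. These were partly other genes: Chst12 was the higher one without TNF, at 0.35, and B4galt7 with TNF, at 0.41. Dse, an epimerase that turns chondroitin into dermatan sulfate, was the gene higher with TNF in both genotypes, with log2 differences of 0.36 and 0.28. Among 11 keratan sulfate and tyrosine sulfation genes, 9 were well above background on all arrays. Chst1, a sulfotransferase for keratan sulfate, had signals of 2.02 and 2.12 in control cells and of 2.84 and 4.47 on the cKO-labelled arrays, and was 2.11-fold higher there with TNF. With TNF in control cells, none of that list was higher and 1 was lower by over 2 spreads, where 9.33% and 9.46% of all genes were. On the cKO-labelled arrays 3 were higher with TNF and none was lower, where 10.7% and 10.3% of all genes were. Between genotypes, 1 gene of that list was higher and 2 were lower by over 2 spreads without TNF, where 14.3% and 10.6% of all genes were. In the genotype comparison with TNF, 4 were higher and none was lower, where 14% and 9.22% of all genes were.

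Among 10 proteases known to cleave small leucine-rich proteoglycans or their relatives, the stromelysin Mmp3 differed most. Its signal was 0.612 without and 15.2 with TNF in control cells, and 0.249 and 1.47 on the cKO-labelled arrays, so it was 24.9-fold higher with TNF in the first and 5.91-fold in the second. Between genotypes Mmp3 was 2.46-fold lower on the untreated cKO-labelled array and 10.4-fold lower on the TNF-treated one. The collagenase Mmp13 had signals of 6.04, 12.9, 12.4 and 11.5 on the untreated and TNF-treated control arrays and the untreated and TNF-treated cKO-labelled arrays, which made it 2.13-fold higher with TNF in control cells and 2.06-fold higher on the untreated cKO-labelled array. Bmp1, Mmp2 and Htra1, the last a serine protease that degrades several of these proteins, differed by less than 2 spreads in all 4 pairwise comparisons. Past 2 spreads, 3 of the list were higher and none was lower with TNF in control cells, 1 was higher and 1 lower with TNF on the cKO-labelled arrays, 1 was higher and 1 lower between genotypes without TNF, and none was higher and 3 were lower with TNF, where the shares of all genes are those given for the enzymes. The aggrecanase gene Adamts4 had log2 differences of 0.48 with TNF in control cells and -0.55 between genotypes with TNF. Mmp14 was at -0.32 between genotypes with TNF, and Adamts5 at -0.56 with TNF on the cKO-labelled arrays. A dimmer Adamts5 probe read -0.36 in the same comparison and 0.34 with TNF in control cells, where the brighter one read -0.07. Between genotypes without and with TNF, the dimmer probe read 0.37 and -0.32 and the brighter one 0.22 and -0.26. The Adamts4 spot lay in a patch on the untreated control array. Binding partners were measured by 18 of 19 listed genes, and Matn1, which the chondrocyte list also holds, was the only one past 2-fold by its brightest probe. Between genotypes without and with TNF, a dimmer Col9a1 probe read -1.23 and -1.12, and a dimmer Col14a1 probe -1.02 and -1.03. The dimmer probes of Lox and Tgfb2 did not pass 2-fold. Past 2 spreads, 5 of the 18 were lower and 1 was higher between genotypes in each comparison, beside 9.22% to 10.6% and 14% to 14.3% of all genes. These were partly other genes, with Lox the higher one without TNF, at 0.44, and Col6a3 with TNF, at 0.34. The Lox spot lay in a patch on the untreated control array. The genes of the main fibril chains Col1a1 and Col2a1 had log2 differences of 0.05 and -0.03 between genotypes without TNF, where Col9a1 was at -0.86, with its spot in a patch on the untreated control array, and Matn3 at -0.52.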

How the data were processed

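Total RNA of 4 chondrocyte cultures was labelled with Cy3 and hybridised to 1-colour Agilent mouse arrays. Spot intensity was deposited by the authors as Agilent Feature Extraction 10.10.1.1 gave it, with background subtracted, trends across the array removed and outliers marked, and also a table of scaled values. The array files name mm9. From there, log2 intensity was set relative to each array's 75th percentile over transcript spots (589.7 to 634 intensity units). Outlier spots were left out, repeat spots of a probe averaged, and each gene read by its brightest probe on average. Between 50.9% and 58.1% of probes were well above background, 0 spots were saturated, and all arrays lay on 1 slide and in 1 scan. Dim values were set no lower than the faintest signal well above background on the array, so that folds against them are lower bounds. The technical spread came from 173 to 215 probes with 10 spots per array. Symbols, neighbours and promoters came from RefSeq (GRCm38.p6), by accession without version, and no coordinate was compared with the array's build. Patches were windows of 11 rows and 5 columns around a spot in which at least 3 of its 54 neighbours were 2-fold or more brighter on 1 array than on each other array. They held 10.7% of transcript spots on the untreated and 7.17% on the TNF-treated control array. On the untreated and TNF-treated cKO-labelled arrays they held 9.46% and 1.04%. All members were named, and of each other list the genes past 2-fold in a pairwise comparison, at most 4; other list genes named in the text were chosen after their values were seen. The members and lists were chosen with earlier results of these data known, and the patch rule and the limit of 2 spreads were set after the data had been seen. Alternatives were no scaling, the scaled table, quantile normalization, normexp (offset 50, on median intensity), the mean over probes, outliers kept, patches left out, other treatment of dim values and other limits. The counting was tested on simulated data. Python 3.11.15, numpy 2.4.6, pandas 2.3.3, R 4.3.3 and limma 3.58.1 were used.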

Additional observations from a re-analysis of the deposited data

Results flagged for a closer look

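Bgn was singled out because its difference with TNF went opposite ways in control and cKO-labelled cells, each by over 1 technical spread. The log2 difference was 0.16 on the control arrays, from a signal of 22.4 to 25.0, and -0.23 on the cKO-labelled arrays, from 21.9 to 18.7. With 1 array per condition this difference was not tested, and the Bgn spot lay in a patch on the untreated control array.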

How the results depend on the processing

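Of 395 single-gene differences and 45 medians, 180 and 21 changed at all under the alternatives, since those on repeat probes, outliers and dim values cannot move genes with 1 bright spot. Of these, 6 differences and 1 median shifted by over 1 technical spread, and 0 differences past 2 spreads changed sign. The median with TNF on the cKO-labelled arrays became -0.28 with quantile normalization. With a limit of 1.5-fold, 1 gene passed with TNF in each genotype and 1 between genotypes without TNF, where none passed 2-fold. Counts past 2 spreads differed from the main setting in 18 of 90 cases, in 12 of them by over 1.5 times. With TNF on the cKO-labelled arrays, the number higher was 0 without scaling, with the scaled table, with quantile normalization and with patches left out (where Dcn and Bgn have no value), and the number lower was 4 without scaling, 4 with the scaled table and 5 with quantile normalization. With quantile normalization 0 were higher with TNF in control cells. In the interaction, 1 was lower without scaling, with the scaled table, with quantile normalization and with normexp. For changes not traced to a missing value, the cause was not tested. No paired analysis was possible by replicate number, because each group has 1 such number. Pairing arrays by genotype or by treatment in an additive fit was possible and was not run. Signal over background limited no member, whereas Kera and Nyx were not well above background.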
